A study of Mus musculus with 6 samples.

Results

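The direct transcriptional targets of YAP and TEAD were examined in cardiomyocyte (CM) nuclei that received GFP or 1 of 2 YAP variants. The 10 genes were *Ccn1*, *Ccn2*, *Ankrd1*, *Ajuba*, *Axl*, *Crim1*, *Nuak2*, *Fjx1*, *Dlc1* and *Nt5e*. They were chosen by name as known targets, with earlier results of these data known, so counts over them are a description and not a test. Each was found by its Ensembl identifier among the 54532 genes of the count table. The older names *Cyr61* and *Ctgf* belong to *Ccn1* and *Ccn2*. Of the 10 genes, 9 passed the filter on low counts and were among the 13323 genes tested, and *Fjx1* did not pass.

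Wild-type ICR mice were given AAV9 under the skin at postnatal day 6, at 1e+11 viral genomes. In the vector the cTnT promoter, which is active in CMs, drove GFP, YAP6SA or YAP5SA, so every group including the control received a vector. Hearts were collected at day 9. Nuclei were pulled down with an antibody to PCM-1, a protein of the nuclear surface in CMs, and their poly-A RNA was sequenced. Each group had 2 libraries, with 1 in each of 2 batches, and the labels give 2 hearts for each virus. Whether a library is 1 heart is not spelled out, so the tests measure the spread between these libraries. YAP5SA carries serine-to-alanine changes at the sites phosphorylated by LATS kinases. YAP6SA carries these and 1 more at the serine through which YAP binds TEAD.

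YAP is a transcriptional coactivator without a DNA-binding domain. The Hippo pathway kinases LATS1 and LATS2 phosphorylate YAP and hold it in the cytoplasm, and unphosphorylated YAP enters the nucleus and binds TEAD factors, which recognise short DNA elements with the core GGAATG. In the heart, YAP and TEAD are known for their part in CM growth before birth and in the response to mechanical load, and *Ccn1*, *Ccn2* and *Ankrd1* are commonly read as measures of their activity.

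The promoters of the target genes are shown because TEAD factors bind elements of this kind and YAP6SA lacks the serine used for TEAD binding. RefSeq promoters of GRCm38.p6 were matched by symbol for 6 of the 10 genes, namely *Ccn1*, *Ankrd1*, *Ajuba*, *Axl*, *Crim1* and *Nt5e*. Each line holds the 250 bases before the annotated start, 5′ to 3′ on the strand of the gene, with the letters GGAATG, or CATTCC where the core lies on the opposite strand, in capitals. The windows are chr3:145649986-145650235 (minus strand) for *Ccn1*, chr14:54577662-54577911 (minus strand) for *Ajuba*, chr17:78199998-78200247 (plus strand) for *Crim1* and chr7:25788734-25788983 (minus strand) for *Axl*. *Ccn1*, *Ajuba* and *Crim1* rose in the YAP5SA libraries, and *Axl* did not pass the test. None of these 4 windows overlaps an exon of its gene in GENCODE M21, whose start lies up to 103 bases downstream, in *Ajuba*.
Ccn1: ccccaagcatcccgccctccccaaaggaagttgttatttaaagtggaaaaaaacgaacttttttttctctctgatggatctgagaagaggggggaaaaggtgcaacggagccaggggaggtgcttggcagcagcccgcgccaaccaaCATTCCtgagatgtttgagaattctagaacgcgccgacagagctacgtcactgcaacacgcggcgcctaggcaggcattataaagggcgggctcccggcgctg
Ajuba: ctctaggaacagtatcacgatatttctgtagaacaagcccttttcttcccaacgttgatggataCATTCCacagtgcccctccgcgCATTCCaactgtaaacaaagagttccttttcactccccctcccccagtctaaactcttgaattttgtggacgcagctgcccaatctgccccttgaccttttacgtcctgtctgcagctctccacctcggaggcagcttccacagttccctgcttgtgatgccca
Crim1: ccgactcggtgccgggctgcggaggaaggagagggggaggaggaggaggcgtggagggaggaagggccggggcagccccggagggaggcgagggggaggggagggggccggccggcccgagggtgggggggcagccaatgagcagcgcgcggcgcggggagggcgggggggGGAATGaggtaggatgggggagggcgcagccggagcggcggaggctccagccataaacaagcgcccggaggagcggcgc
Axl: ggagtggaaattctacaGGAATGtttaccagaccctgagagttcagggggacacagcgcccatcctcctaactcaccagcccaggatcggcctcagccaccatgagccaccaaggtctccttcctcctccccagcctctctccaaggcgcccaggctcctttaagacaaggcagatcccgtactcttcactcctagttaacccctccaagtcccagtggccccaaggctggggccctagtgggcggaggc

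*Ankrd1*, the most abundant of the 10 genes, had 2 matches. Its RefSeq window lies inside exons of the GENCODE M21 model, whose start is 255 bases further upstream, so only 26 bases around each match are given, from chr19:36120039-36120064 and chr19:36119952-36119977 (minus strand).
Ankrd1 distal match: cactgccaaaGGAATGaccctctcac
Ankrd1 proximal match: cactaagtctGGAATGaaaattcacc

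The core GGAATG, searched on both strands, was present in 5 of the 6 promoters. The matches began 103 bases before the start in *Ccn1*, 210 and 123 in *Ankrd1*, 186 and 164 in *Ajuba*, 79 in *Crim1* and 233 in *Axl*. The core lay on the strand of the gene in *Ankrd1*, *Axl* and *Crim1* and on the opposite strand in *Ccn1* and *Ajuba*. The *Nt5e* window, which lies wholly inside exons of the GENCODE M21 model, held no match. Over all genes with a promoter in the same table, 14.4% held the core in this window (3880 of 27025), and over single promoters 12.6% did. The AP-1 element TGANTCA was in 0 of the 6 windows, against 7.82% of genes with a promoter. The CArG box of SRF was likewise in 0 of the 6, against 1.62%. These are matches of letters in a window of 250 bases and are not measured binding, and the map of the promoters shows where they lie.

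**Figure D1:**
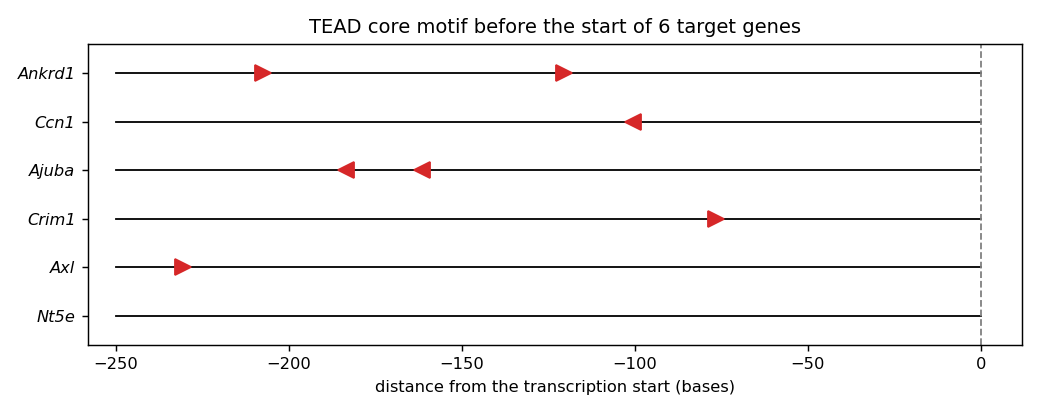
Positions of the core GGAATG in the 250 bases before the RefSeq start of the 6 target genes with a promoter, with the distance to the start in bases on the x axis, 1 line per gene and arrows pointing right for a match on the strand of the gene and left for the opposite strand. The 7 matches lie between 79 and 233 bases before the start, and *Nt5e* has none.

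The libraries held 14552847 to 19615627 counts on genes, and a gene at 0 counts could have up to 3 at this depth, which covers counting error only. The 10 genes hold from 1 count of *Fjx1* to 85888 counts of *Ankrd1* in a library, so counting error is small for all but *Fjx1*. For the CM label, 6 defining genes were read, *Tnnt2*, *Myh6*, *Actn2*, *Ryr2*, *Ttn* and *Pln*, of which 0 were at 0 counts in any library. Their summed level was 42868 and 57884 CPM (counts relative to the library size after TMM scaling) in GFP, 40006 and 52234 in YAP6SA OE CMs and 35324 and 25206 in YAP5SA OE CMs, in batches 1 and 2. Markers of other cell types were also present, and their values are given with the results below. In the fibroblast, endothelial, macrophage, mural and epicardial lists, 0 markers were at 0 counts in any library. Presence alone therefore does not set CMs apart. The counts of *Yap1* do not show the overexpression, with a log2 fold change against GFP of -0.09 in YAP6SA OE CMs (false discovery rate, FDR, 0.952) and -0.17 in YAP5SA OE CMs (FDR 0.495).

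Most of the direct targets were higher in YAP5SA OE CMs (OE, overexpressing), and none was past the test in YAP6SA OE CMs. Against GFP, *Ccn2*, *Nuak2*, *Ankrd1*, *Dlc1*, *Crim1*, *Ccn1*, *Ajuba* and *Nt5e* rose in YAP5SA OE CMs, by 10.1-fold for *Ccn2* at the top and 1.90-fold for *Nt5e* at the bottom. These are 8 of the 9 genes tested, and 0 fell. Of all 13323 genes, 12.8% rose and 9.18% fell in this comparison. The same 8 genes were also higher in YAP5SA than in YAP6SA OE CMs, where 9% of all genes were higher and 5.68% lower. In YAP6SA OE CMs, 0 of the 9 genes passed the test against GFP (edgeR quasi-likelihood test, FDR threshold 0.05), as against 0.045% of all genes, which is 6 genes. With so few genes called, a count of 0 does not set the targets apart from other genes. At an unadjusted p under 0.05, the count for YAP6SA was 1 of 9, and that gene was *Ankrd1*, which was higher. Of all 13323 genes, 514 were higher and 276 lower at that threshold. Both variants were compared with the same GFP libraries, so these 2 comparisons are not independent of each other.

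**Figure D2:**
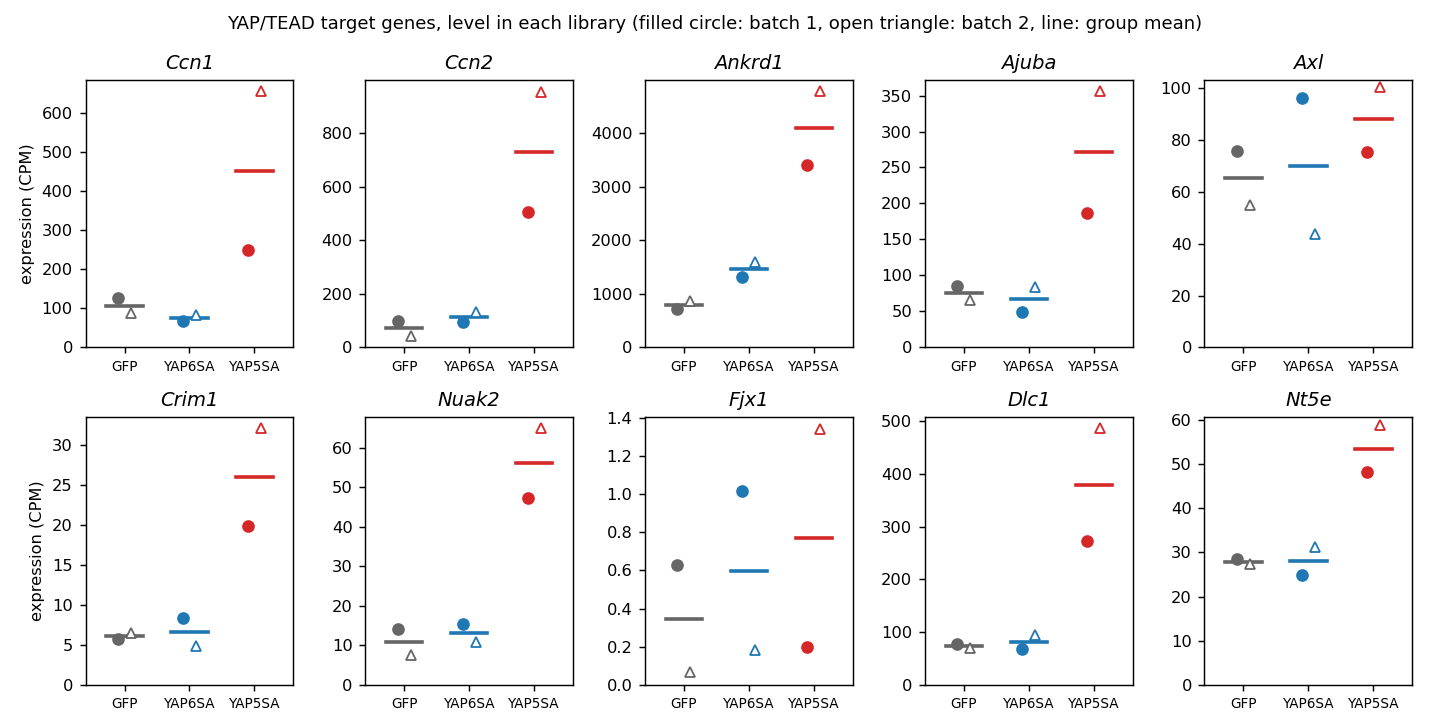
Level of each of the 10 target genes in each of the 6 libraries, in CPM on a linear axis of its own that starts at 0, with the groups GFP, YAP6SA and YAP5SA on the x axis, a filled circle for batch 1, an open triangle for batch 2 and a line at the group mean. In 8 panels both YAP5SA libraries lie above all others, and in the *Axl* and *Fjx1* panels the groups overlap.

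*Ccn2* (ENSMUSG00000019997, chromosome 10 of GRCm38, 24595442 to 24598683, plus strand) encodes a matricellular protein that is secreted into the extracellular matrix and promotes its deposition. In batches 1 and 2 its level was 99.3 and 42.5 CPM in GFP, 96.9 and 132 in YAP6SA OE CMs, and 504 and 954 in YAP5SA OE CMs. Both YAP5SA libraries were above the other 4, and the YAP6SA libraries overlapped the GFP libraries, since GFP was low in batch 2 only. The log2 fold change of YAP5SA against GFP was 3.33 (SE 0.43, FDR 0.000998), with 2.34 in batch 1 and 4.48 in batch 2. Without the GFP library of batch 2 it was 2.47, without that of batch 1 it was 4.39, and without the YAP5SA library of batch 1 or 2 it was 3.99 or 2.71, all past the threshold. For YAP6SA against GFP it was 0.67 (95% interval -0.22 to 1.55, FDR 0.874), and this estimate depended on the GFP libraries. Batch 1 gave -0.04 and batch 2 gave 1.63, and the estimate was 1.76 without the GFP library of batch 1 (FDR 0.0296) and -0.15 without that of batch 2.

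*Ccn1* (ENSMUSG00000028195, chromosome 3, 145646976 to 145649981, minus strand) encodes a related matricellular protein that signals through integrins. It was at 126 and 87.4 CPM in GFP, 68.1 and 83.7 in YAP6SA OE CMs, and 249 and 655 in YAP5SA OE CMs. The YAP5SA libraries were the highest and the YAP6SA libraries the lowest, with no overlap between the 3 groups. Against GFP, *Ccn1* rose by 1.96 on the log2 scale in YAP5SA OE CMs (SE 0.36, FDR 0.00528), by 0.98 in batch 1 and 2.91 in batch 2. The rise was 2.68 and 1.29 without the GFP library of batch 1 or 2, and 2.69 and 1.18 without the YAP5SA library of batch 1 or 2, all past the threshold. With YAP6SA the difference from GFP was -0.54 (95% interval -1.31 to 0.22, FDR 0.889). Batch 1 alone gave -0.89 and batch 2 alone -0.06, and the estimate without the GFP library of batch 1 was 0.24.

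*Ankrd1* (ENSMUSG00000024803, chromosome 19, 36111961 to 36120099, minus strand) encodes a muscle ankyrin repeat protein that binds titin in the sarcomere and also acts in the nucleus. It had 723 and 871 CPM in GFP, 1321 and 1591 in YAP6SA OE CMs, and 3412 and 4795 in YAP5SA OE CMs. The groups were stepped without overlap, and within each group the library of batch 2 was the higher. As a share of the gene counts, *Ankrd1* took 0.0775% in GFP, 0.143% in YAP6SA and 0.427% in YAP5SA libraries. Its log2 fold change against GFP was 2.35 in YAP5SA OE CMs (SE 0.21, FDR 0.0002), with 2.24 and 2.46 in batches 1 and 2, the closest agreement between batches of the 8 genes that rose. With YAP6SA it was 0.87 (SE 0.20, 95% interval 0.42 to 1.32, FDR 0.328), and it was 0.87 in each batch. This value did not pass the threshold in the test used, but did in 6 of 15 alternatives, with no filter on low counts, the likelihood ratio test, DESeq2, the 4 libraries compared alone, or either YAP5SA library left out. Over the alternatives the estimate ran from 0.81 to 0.93 and the FDR from 2.85e-05 to 1. That lowest FDR came from the fit with no filter, which also gave *Ankrd1* an FDR of 1.26e-44 for YAP5SA against GFP, far below the 0.0002 of the test used. YAP5SA exceeded YAP6SA by 1.48 (SE 0.20, FDR 0.0019), which was 1.43 with FDR 0.105 without the YAP6SA library of batch 2.

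Among the signalling targets, 3 intracellular regulators rose in YAP5SA OE CMs. *Nuak2* (ENSMUSG00000009772, chromosome 1, 132316126 to 132333488, plus strand) encodes an AMPK-related kinase that feeds back on the Hippo pathway. It was at 14.0 and 7.42 CPM in GFP, 15.4 and 10.9 in YAP6SA OE CMs, and 47.2 and 64.8 in YAP5SA OE CMs. Only the YAP5SA libraries stood apart. *Nuak2* rose by 2.44 in YAP5SA OE CMs (SE 0.31, FDR 0.000911), by 1.75 and 3.11 in batches 1 and 2. The difference in YAP6SA OE CMs was 0.30 (95% interval -0.36 to 0.97).

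*Dlc1* (ENSMUSG00000031523, chromosome 8, 36567751 to 36953143, minus strand) encodes a GTPase-activating protein. Its level was 78.3 and 69.4 CPM in GFP, 67.8 and 94.0 in YAP6SA OE CMs, and 273 and 487 in YAP5SA OE CMs. GFP and YAP6SA overlapped, and both YAP5SA libraries were far above them. *Dlc1* rose by 2.30 in YAP5SA OE CMs (SE 0.23, FDR 0.000302), by 1.80 and 2.81 in batches 1 and 2, and in YAP6SA OE CMs its change was 0.09 (95% interval -0.40 to 0.58).

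*Ajuba* (ENSMUSG00000022178, chromosome 14, 54567472 to 54577558, minus strand) encodes a LIM domain protein of cell junctions that restrains LATS kinases. It had 85.4 and 66.5 CPM in GFP, 49.2 and 84.2 in YAP6SA OE CMs, and 187 and 357 in YAP5SA OE CMs. The YAP6SA library of batch 1 was the lowest of the 6, and the groups GFP and YAP6SA overlapped. In YAP5SA OE CMs *Ajuba* rose by 1.74 (SE 0.27, FDR 0.00261), by 1.13 and 2.42 in batches 1 and 2, and by 2.40 without the GFP library of batch 1. Its difference with YAP6SA was -0.27 (95% interval -0.87 to 0.32), with -0.80 in batch 1, 0.34 in batch 2 and 0.38 without the GFP library of batch 1.

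The targets at the cell membrane were less uniform. *Crim1* (ENSMUSG00000024074, chromosome 17, 78200248 to 78376592, plus strand) encodes a transmembrane protein that binds bone morphogenetic proteins. It was at 5.76 and 6.44 CPM in GFP, 8.36 and 4.83 in YAP6SA OE CMs, and 19.9 and 32.2 in YAP5SA OE CMs. The YAP6SA libraries lay on both sides of the GFP libraries, below all of YAP5SA. *Crim1* rose by 2.09 in YAP5SA OE CMs (SE 0.34, FDR 0.00311), by 1.77 and 2.30 in batches 1 and 2, and differed by 0.13 in YAP6SA OE CMs (95% interval -0.64 to 0.90). Its exons overlap those of *Fez2* on the opposite strand, which had 3251 counts in the 6 libraries against 1332 for *Crim1*. Whether the counts keep the strands apart was not tested.

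*Nt5e* (ENSMUSG00000032420, chromosome 9, 88327197 to 88372092, plus strand) encodes the ectoenzyme CD73, which makes adenosine from AMP outside the cell. Its level was 28.6 and 27.3 CPM in GFP, 24.8 and 31.1 in YAP6SA OE CMs, and 48.1 and 59.0 in YAP5SA OE CMs. YAP6SA bracketed GFP, and YAP5SA was above both by less than for the other genes that rose. The rise was 0.93 (SE 0.18, FDR 0.00686), with 0.75 and 1.11 in batches 1 and 2. Without the GFP library of batch 2 it was 0.75 with FDR 0.125, so this call rested on that library. With YAP6SA the difference was -0.01 (95% interval -0.41 to 0.39), which is the narrowest interval of the 9 genes in that comparison.

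*Axl* (ENSMUSG00000002602, chromosome 7, 25757273 to 25788705, minus strand) encodes a receptor tyrosine kinase for GAS6, and was the 1 tested target that did not rise past the test in YAP5SA OE CMs. It was at 75.9 and 55.1 CPM in GFP, 96.3 and 43.9 in YAP6SA OE CMs, and 75.4 and 100.4 in YAP5SA OE CMs. The groups overlapped, and in GFP and YAP6SA the library of batch 1 was the higher. The log2 difference of YAP5SA from GFP was 0.48 (95% interval -0.15 to 1.12, FDR 0.255). Batch 1 gave -0.01 and batch 2 gave 0.86. The estimate was 1.03 with FDR 0.000641 without the YAP5SA library of batch 1, and -0.17 without that of batch 2. YAP6SA differed from GFP by 0.06 (95% interval -0.58 to 0.69), which was -0.57 without the YAP6SA library of batch 1.

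*Fjx1* (ENSMUSG00000075012, chromosome 2, 102449366 to 102452499, minus strand), a secreted relative of a fly protein that acts on Fat and Dachsous cadherins, was near the detection limit. Its counts in batches 1 and 2 were 12 and 1 with GFP, 20 and 3 with YAP6SA, and 3 and 24 with YAP5SA. The high library was in batch 1 for GFP and YAP6SA and in batch 2 for YAP5SA, and the groups overlapped. With these low counts and the spread between the libraries of each group, a difference was not detectable. No fold is given because 1 library of each group was at or under 3 counts.

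**Figure D3:**
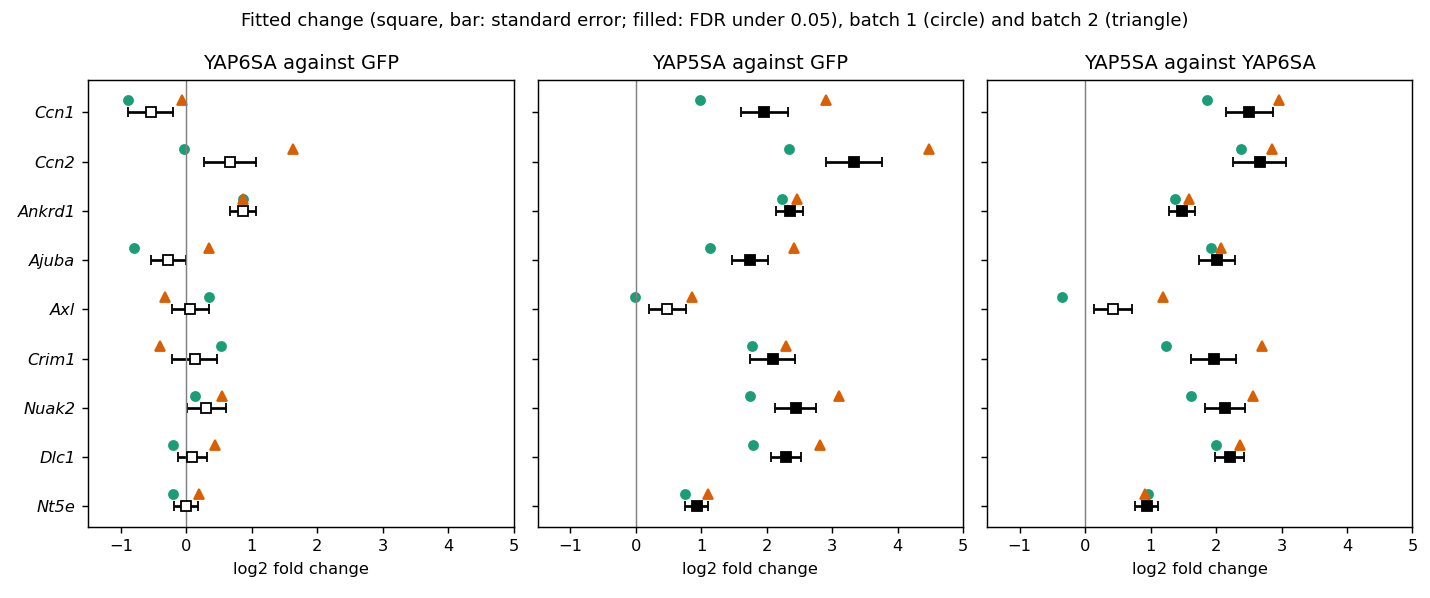
Log2 fold change of the 9 tested target genes for YAP6SA against GFP, YAP5SA against GFP and YAP5SA against YAP6SA, on the x axis, with squares for the fitted value (filled where past the FDR threshold of 0.05), bars for the standard error, circles for batch 1 and triangles for batch 2. In YAP5SA against GFP the squares lie between 0.48 and 3.33 and all but that of *Axl* are filled, and in YAP6SA against GFP they lie between -0.54 and 0.87 and none is filled.

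The variants were also compared with each other, in the same fit of all 6 libraries. The GFP libraries therefore enter its batch term and its estimate of the spread. *Ccn2* was higher in YAP5SA than in YAP6SA OE CMs by 2.67 on the log2 scale (SE 0.41, FDR 0.00299) and *Ccn1* by 2.51 (SE 0.36, FDR 0.00228). *Dlc1* followed with 2.21, *Nuak2* with 2.14, *Ajuba* with 2.02, *Crim1* with 1.96, *Ankrd1* with 1.48 and *Nt5e* with 0.94, all past the threshold. *Axl* differed by 0.43 (95% interval -0.22 to 1.07, FDR 0.356). The *Axl* estimate was 1.00 with FDR 0.0427 without the YAP6SA library of batch 1, 1.02 with FDR 0.00116 without the YAP5SA library of batch 1, and -0.11 and -0.19 without the YAP6SA or YAP5SA library of batch 2. Without the YAP6SA library of batch 2, *Ankrd1*, *Crim1* (1.39) and *Nt5e* (1.05) were no longer past the threshold. *Nt5e* also missed it without the YAP6SA library of batch 1 (0.84). *Crim1* was 2.62 without that library. The share of all genes called in these fits is not given here, so lost calls cannot be read as particular to the targets. Leaving out the YAP5SA library of batch 2 gave 1.66 for *Ccn1*, 1.93 for *Ccn2* and 1.53 for *Nuak2*, and leaving out that of batch 1 gave 3.17 for *Ccn1*, each past the threshold.

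The median log2 fold change of the 9 tested genes was 2.09 for YAP5SA against GFP, beside -0.0031 over all genes tested. For YAP6SA against GFP it was 0.09, beside 0.0018 over all genes, and for YAP5SA against YAP6SA it was 2.02, beside -0.0125. The libraries of YAP5SA lay above both GFP libraries without overlap for 8 of 9 targets and below them for 0, where 31.2% and 29.8% of all genes did. Between YAP5SA and YAP6SA, 8 of 9 were likewise higher without overlap and 0 lower, beside 28.6% and 29% of all genes. For YAP6SA and GFP, 1 target was higher without overlap, *Ankrd1*, and 1 was lower, *Ccn1*, and 17.4% and 17% of all genes had these patterns. Among all 13323 genes ordered from the largest rise in YAP5SA OE CMs, *Ccn2* stood at 126, *Nuak2* at 264 and *Ankrd1* at 283. *Nt5e* stood at 1471 and *Axl* at 2985. In YAP6SA OE CMs, *Ankrd1* was at 269 and *Ccn1* at 12925, near the other end.

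**Figure D4:**
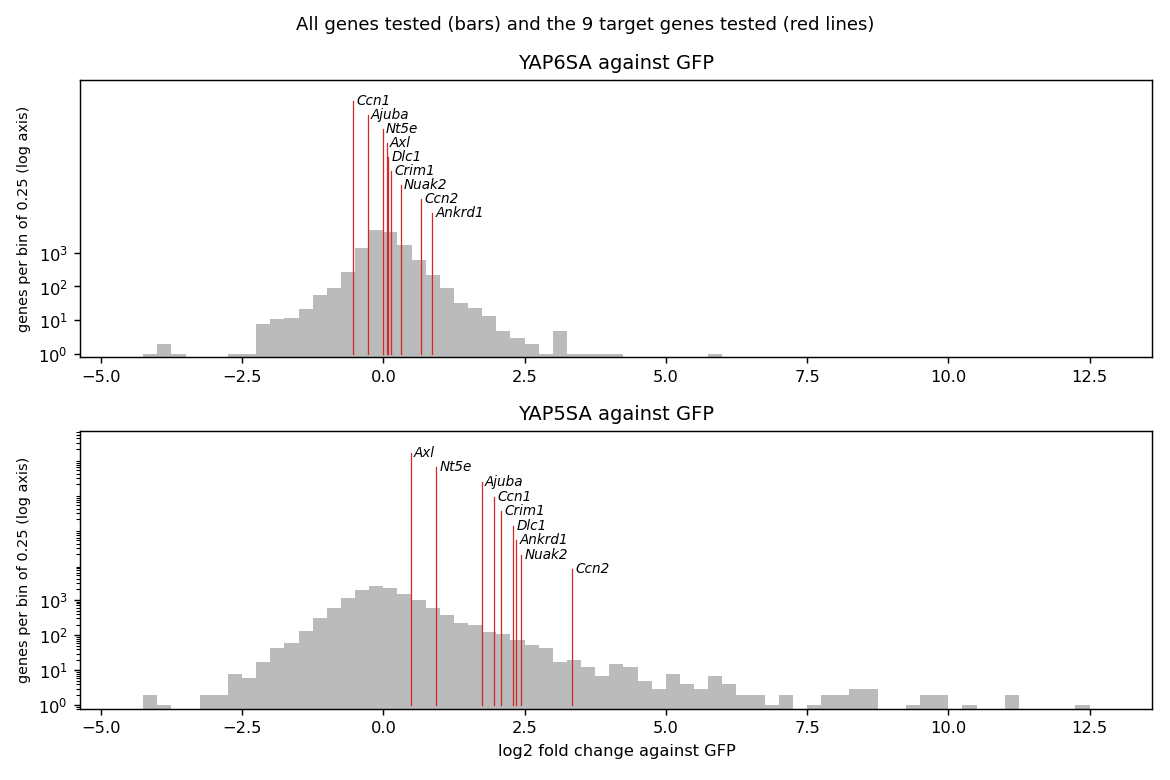
Distribution of the log2 fold changes of all 13323 genes tested (grey bars, number of genes per bin on a log axis) for YAP6SA and YAP5SA against GFP, with the 9 target genes as red lines. In the YAP6SA panel the targets lie between -0.54 and 0.87, and in the YAP5SA panel between 0.48 and 3.33.

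The rise in YAP5SA OE CMs was not the same size in the 2 batches. For 9 of 9 targets the log2 difference between YAP5SA and GFP was larger in batch 2 than in batch 1, as it was for 51.4% of all genes and for 85% of the genes that rose (1452 of 1708). The median over the targets was 1.75 in batch 1 and 2.46 in batch 2. The largest gaps between batches were in *Ccn2* and *Ccn1*, which had lower GFP levels and higher YAP5SA levels in batch 2. The amount of transgene in each library was not measured here, and its part in these gaps was not tested.

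Marker genes of other cell types are given here beside *Ccn1*, *Ccn2* and *Axl*, which fibroblasts also express. The 8 fibroblast markers, with 0 of them at 0 counts in any library, summed to 1363 and 857 CPM in GFP, 1771 and 981 in YAP6SA OE CMs and 1491 and 902 in YAP5SA OE CMs. They were higher in batch 1 in every group, as *Axl* was in GFP and YAP6SA and as *Ccn1* and *Ccn2* were in GFP. *Axl* in YAP5SA, and *Ccn1* and *Ccn2* in YAP6SA and YAP5SA, were instead higher in batch 2. In batches 1 and 2 the ratio of the fibroblast sum to GFP was 1.09 and 1.05 for YAP5SA and 1.30 and 1.14 for YAP6SA. Of the 8 fibroblast markers, 0 passed the test in any comparison. For YAP5SA the sum of 7 endothelial markers gave a ratio of 1.06 and 1.12, with 0 of 7 past the test. The 6 macrophage markers gave 1.32 and 1.47, with *C1qa* higher. The 6 mural and smooth muscle markers gave 0.869 and 0.602, with *Myh11* higher and *Abcc9* lower. Of this summed level in batches 1 and 2, *Abcc9* alone held 271 of 457 and 386 of 532 CPM in GFP. In YAP5SA OE CMs it held 215 of 397 and 155 of 320 CPM. The mural sum is therefore weighted to this gene, which fell by 0.81 on the log2 scale (log2 fold change -0.81). *Pdgfrb* (-0.04), *Rgs5* (0.70), *Cspg4* (-0.13) and *Kcnj8* (-0.25) did not pass the test against GFP. Of the 6 erythroid genes only 2 were abundant enough to test, and their list gave 0.962 and 0.533. The 4 epicardial markers gave 3.13 and 5.83, and 1.13 and 1.27 without *Wt1*, which rose in YAP5SA OE CMs by 3.17 (FDR 0.000232). The CM markers fell to 0.824 and 0.435 of GFP in YAP5SA OE CMs by their sum, and 2 of 6 passed the test, *Ryr2* and *Pln*. In bulk samples, fewer cells of a type and less RNA per cell cannot be told apart, and the part of these shifts in the target genes was not tested.

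Levels can be compared between the targets per length, as CPM per kilobase of exon (RPKM). In GFP, *Ankrd1* led with 276 RPKM, followed by *Ccn1* with 52.8 and *Ccn2* with 24.8, and *Crim1* with 1.02 and *Fjx1* with 0.111 were last. The neighbours *Ccn2* and *Ajuba* (20.8) overlapped over their libraries, as did *Nt5e* (3.25) and *Nuak2* (2.73), while *Axl* (13.0) and *Dlc1* (5.02) stood between. In YAP5SA OE CMs, *Ankrd1* was at 1422 RPKM, and *Ccn2* (255) had moved ahead of *Ccn1* (224), although these overlapped. *Ajuba* came next with 74.5 and *Dlc1* with 25.8. *Dlc1* had passed *Axl* (17.5) there and *Nuak2* (14.3) had passed *Nt5e* (6.22), but *Dlc1* overlapped *Axl*, and *Axl* overlapped *Nuak2*. In YAP6SA OE CMs, *Ccn2* (40.0) and *Ccn1* (37.6) overlapped, and the others kept nearly the order of GFP.

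For each of the 9 tested targets, the 3 genes with the most similar course over the 6 libraries were found among 12701 genes, by the root mean square difference of the log2 levels relative to GFP. *Ankrd1* was closest to *Cdkl1* (0.104), *Cfap43* (0.12) and *Asf1b* (0.126), a histone chaperone of S phase. *Ccn1* was closest to *Nxpe3* (0.208) and then to another of the targets, *Ajuba* (0.262), followed by *Tmem189* (0.294). *Ccn2* was less closely matched, by *Adamts20* (0.285), *Ccl7* (0.353) and *Hs6st2* (0.363). The nearest to *Ajuba* were *Esrp2*, *Zfp697* and *Dcun1d4*, and those of *Crim1* were *Haspin*, *Mxd3* and *Nkd1*, of which *Haspin* encodes a mitotic histone kinase and *Nkd1* an inhibitor of Wnt signalling. *Nuak2* was followed by *Gria3*, *Zfp37* and *Ticrr*, *Dlc1* by *Prx*, *Mamld1* and *Htra2*, and *Nt5e* by *Myef2*, *Tmem62* and *Aldh3b1*. Differences for these 5 targets ran from 0.0731 to 0.2. The course of *Axl* was nearest to those of *Prex2* (0.128), *Eno2* (0.141) and *Lfng* (0.153).

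The wider YAP and TEAD list held 22 further genes of the pathway, targets and Hippo feedback genes, of which 21 were tested and *Foxf2* had 0 counts in every library. This list was also chosen with earlier results of these data known, so its counts are a description and not a test. In YAP5SA OE CMs, 11 of 21 rose against GFP and 0 fell, beside 12.8% and 9.18% of all genes, with a median of 0.71. Against YAP6SA 10 were higher and 0 lower, beside 9% and 5.68% of all genes, with a median of 0.98. In YAP6SA OE CMs 0 of 21 passed the test, beside 0.045% of all genes, and the median was 0.09. The count was also 0 at an unadjusted p under 0.05, where 514 of all 13323 genes were higher and 276 lower. The Hippo scaffold *Amotl2*, which holds YAP at junctions, was at 137 and 136 CPM in GFP, 133 and 188 in YAP6SA OE CMs, and 676 and 1400 in YAP5SA OE CMs, a rise of 2.83 in the last (FDR 0.000187). *Lats2*, the kinase that phosphorylates YAP, rose by 1.15 (FDR 0.00202), and *Wwc1*, an activator of LATS kinases, by 5.34 (FDR 0.00151). *Wwc1* had 19 and 11 counts in GFP, 23 and 1 in YAP6SA and 274 and 1053 in YAP5SA libraries, of which the YAP6SA library of batch 2 is under the limit of 3 counts. Its rise against GFP was 5.94 without the GFP library of batch 1, and 7.04 or 3.74 without the YAP5SA library of batch 1 or 2, all past the threshold.

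Other members of the list that rose in YAP5SA OE CMs were the TEAD cofactor *Vgll3* (5.12, FDR 0.000331), the matricellular *Thbs1* (3.62, FDR 0.0124), *Rbms3* (2.12) and the ligand *Tgfb2* (2.10). *Asap1* (1.25), *Arhgef17* (0.64) and the phosphatase *Ptpn14*, which binds YAP (0.59), also rose. The largest value in the other direction was in *F3*, the initiator of coagulation, at -0.21, which did not pass the test. *Thbs1* had 11.9 and 2.02 CPM in GFP, 21.0 and 7.98 in YAP6SA OE CMs, and 32.3 and 108 in YAP5SA OE CMs, with the GFP library of batch 1 above the YAP6SA library of batch 2. Its rise was 1.43 in batch 1 and 5.67 in batch 2, and 5.20 without the GFP library of batch 1. Without the YAP5SA library of batch 1 or 2, *Thbs1* was 5.24 or 1.67 and *Vgll3* 6.11 or 4.02, each past the threshold. Without the GFP library of batch 2, *Thbs1*, *Arhgef17* and *Ptpn14* were among the list members no longer past the threshold against GFP. The share of all genes called in that fit is not given here, so lost calls cannot be read as particular to the list. The core GGAATG was in 5 of 16 promoters of the list that were matched, *Amotl2*, *Ptpn14*, *Vgll3*, *Wwc2* and *Ptpn21*, beside 14.4% of all genes with a promoter. Of these 5, *Wwc2* (0.15, FDR 0.512) and *Ptpn21* (0.20, FDR 0.344) did not pass the test in YAP5SA OE CMs against GFP.

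**Figure D5:**
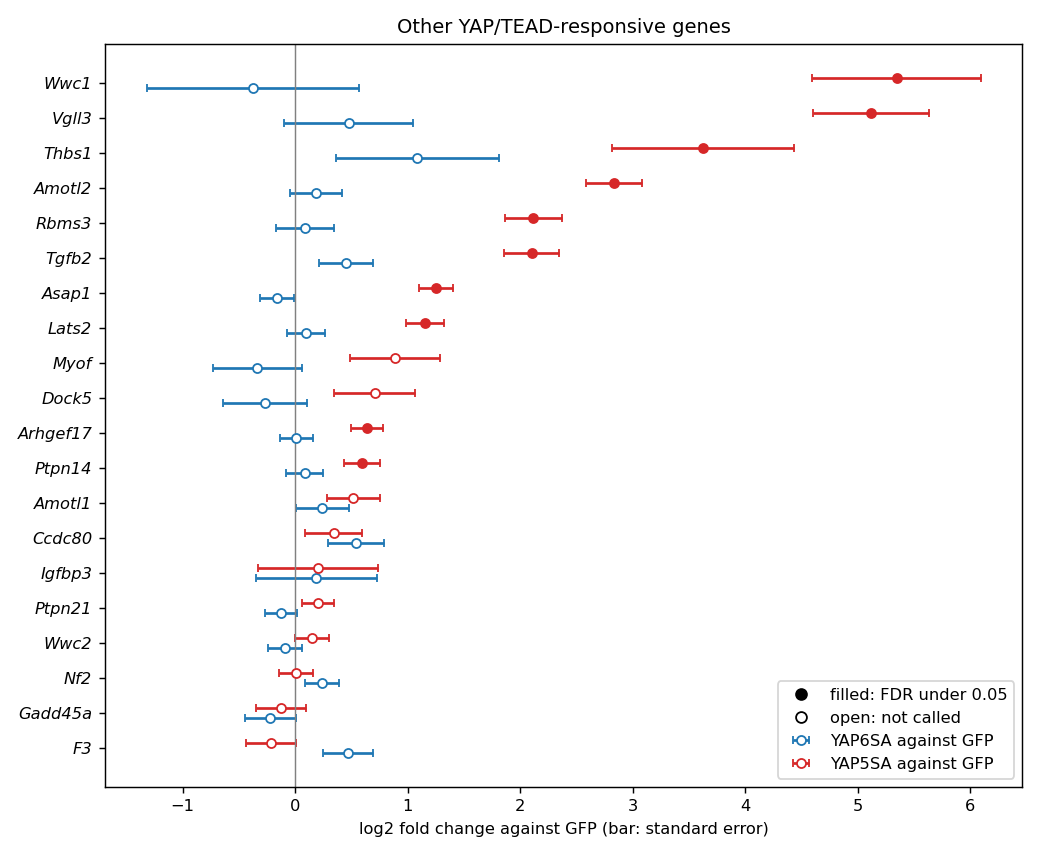
Log2 fold change against GFP of 20 of the 21 tested genes of the wider YAP and TEAD list, on the x axis, for YAP6SA (blue) and YAP5SA (red), with bars for the standard error and filled points for genes past the FDR threshold of 0.05. The 10 filled points all belong to YAP5SA and lie between 0.59 and 5.34.

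Of the factors themselves, *Tead1* rose by 0.77 (FDR 0.0156) and *Tead4* by 3.37 (FDR 0.000331) in YAP5SA OE CMs. *Tead4* was at 28 and 30 counts in GFP, 60 and 59 in YAP6SA and 202 and 411 in YAP5SA libraries, and its difference in YAP6SA OE CMs was 0.96 with FDR 0.707. The TEAD-binding cofactor *Vgll4*, which competes with YAP, rose by 1.66 (FDR 0.00149), and *Vgll2* had 2 and 1 counts in GFP, 1 and 0 in YAP6SA and 32 and 87 in YAP5SA libraries. *Tead3* differed from GFP by 0.48 (FDR 0.0587) and was higher in YAP5SA than in YAP6SA OE CMs by 0.59 (FDR 0.0359). The YAP paralogue *Wwtr1*, which encodes TAZ, differed by 0.08 in YAP6SA and 0.11 in YAP5SA OE CMs, and neither passed the test.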

How the data were processed

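The authors deposited raw counts per gene, without normalization, for 6 libraries, 2 each for GFP, YAP6SA and YAP5SA, after alignment to mm10 with STAR. Unmapped (3.03% to 3.63%), multimapping (2.90% to 4.19%), non-genic (9.43% to 9.84%) and ambiguous reads (5.79% to 6.31%) stand in rows of their own and were left out. Names, positions and exon lengths came from GENCODE M21 (GRCm38). Genes with a median log2 CPM above 1 in at least 1 group were kept (13323). The quasi-likelihood test of edgeR 4.0.16 (R 4.3.3, TMM scaling) was used in 1 model of the 6 libraries with terms for group and batch, with Benjamini-Hochberg adjustment over all genes kept, at 0.05. Intervals are 95% intervals of the fit. Batch values are differences of log2 CPM with a prior count of 2. Genes of similar course were sought among those whose mean log2 CPM was 1 or more.

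The labels give each library a batch number, which equals its replicate number, so the batch term pairs the libraries. Across genes, the deviations of GFP libraries from their group mean correlated with those of YAP6SA at 0.368 and of YAP5SA at 0.0985, and the variants with each other at 0.175. No library was a copy, as the chi-square of replicates was 25.3 to 39.6 per degree of freedom. The scripts were tested on simulated counts. Alternatives were another scaling, another filter, the likelihood ratio test, DESeq2 1.42.0, limma-voom (limma 3.58.1), no batch term, the 4 libraries compared alone, and each library left out. All 10 targets are named, with genes of the wider list past the threshold or largest in each direction, and markers beside a result. Of the wider list, 1 gene enters its counts and medians but is not reported here by name. The members and lists were chosen with earlier results of these data known.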

Additional observations from a re-analysis of the deposited data

How the results depend on the processing

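Each comparison was repeated under 15 alternatives. The 8 targets that rose in YAP5SA OE CMs against GFP kept their direction in all of them, and the number called ran from 7 to 9 with a library left out. The number of targets called in YAP6SA OE CMs, 0 as reported, was 2 with no filter on low counts (*Ankrd1*, and *Ccn2* at 0.66 with FDR 0.035), 1 with the likelihood ratio test, 1 with DESeq2, 1 with the 4 libraries compared alone, and 0 to 1 with a library left out. That of the wider list, also 0, was 1 with no filter, 1 with the 4 libraries alone and 0 to 1 with a library left out. For YAP5SA against GFP the wider list gave 7 to 14 with a library left out, and for YAP5SA against YAP6SA the targets gave 5 to 9. The share of all genes called under each alternative is not given here. From these counts alone, a shift in the targets therefore cannot be told apart from a shift over all genes. The cause of these shifts was not tested. With no filter, the edgeR quasi-likelihood test gave far smaller FDR values for some targets. For *Ccn2* in YAP5SA against GFP it was 1.12e-65, beside 0.000998 with the filter. Calls of the fit with no filter are therefore not directly comparable with those of the test used.

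Without the replicate block (the batch term), the paired and unpaired fits both called 0 targets for YAP6SA against GFP, 8 for YAP5SA against GFP and 8 for YAP5SA against YAP6SA, and the wider list gave 0, 11 and 9. *Nt5e* in YAP6SA OE CMs was then 0.0011 in place of -0.01.

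Signs turned with a library left out mostly for YAP6SA against GFP, where no target was past the threshold. Leaving out each library in turn gave -1.14 to 0.24 for *Ccn1*, -0.15 to 1.76 for *Ccn2*, -0.83 to 0.38 for *Ajuba*, -0.090 to 0.83 for *Nuak2*, -0.30 to 0.53 for *Dlc1*, -0.57 to 0.54 for *Axl*, -0.56 to 0.67 for *Crim1* and -0.19 to 0.18 for *Nt5e*. *Axl* ran from -0.17 to 1.03 for YAP5SA against GFP and from -0.19 to 1.02 for YAP5SA against YAP6SA. With 1 library left in a group, that library is assumed to vary like the others. With 2 libraries per group, outlying samples could not be tested.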
